A study of Homo sapiens with 8 samples.

Results

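The AP-1 transcription factor genes were examined as 8 genes chosen by symbol: JUN, JUNB and JUND (the JUN family), FOS, FOSB, FOSL1 and FOSL2 (the FOS family), and ATF3. They were found by their Ensembl identifiers among the 78932 genes of the deposited count tables, and 7 of the 8 were among the 12618 genes that passed the filter on low counts. FOSB did not pass it. With dTAGV1, transcripts of ATF3, JUN and JUNB rose by 2.69, 2.35 and 1.76 times, and JUND and FOSL2 by 1.31 and 1.29 times. FOS fell to 0.712 of its control level, and FOSL1 did not pass the test. FOS and FOSL2 passed in only 11 of 16 and 11 of 17 alternative fits. JUND and FOSL2 changed by less than the median absolute change of all tested genes.

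The cells were of HCT116, a line from a human colorectal carcinoma, in which NUDT21 bears a degradation tag (dTAG-NUDT21). NUDT21 is the small subunit of cleavage factor Im, which binds pre-mRNA upstream of poly(A) sites. In all, 4 libraries came from cells given DMSO with JTE-607 and 4 from cells given dTAGV1 with JTE-607. They are called DMSO and dTAGV1 libraries here. dTAGV1 is a compound that brings a tagged protein to a ubiquitin ligase for degradation, and JTE-607 is an inhibitor of CPSF3, the nuclease that cuts pre-mRNA at poly(A) sites. Both groups carry the tag and both received JTE-607, so every difference is one between inhibited cells with and without the degrader, and cells without JTE-607 were not analysed here. The labels give no dose, time or clone number, and all cells are of 1 tagged line. They do not say that replicates were separate cultures, so the p-values measure only the spread between these libraries, which may be technical.

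AP-1 is a dimer of basic leucine zipper proteins. JUN proteins pair with each other, with FOS proteins or with ATF proteins, whereas FOS proteins need a JUN partner to bind DNA. JUN-FOS dimers prefer the element TGACTCA and JUN-ATF dimers the longer TGACGTCA and its variants. Several of the genes, such as FOS and JUN, are known as immediate early genes with short-lived mRNAs. These are induced within minutes by growth factors through ERK and by stress through JNK and p38. In colorectal cancer cells AP-1 is known for its part in growth, invasion and stress responses.

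Promoter stretches are shown first for the members that hold a match to the longer element or to its variant TGACATCA. The sequences are from RefSeq on GRCh38.p14 and run from 250 bases before to 50 after each annotated start, and 7 of the 8 members had an entry (ATF3 had 2). Capitals mark the match.
JUN, chr1:58784081-58784140, minus strand: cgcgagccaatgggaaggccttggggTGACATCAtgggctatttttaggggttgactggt
ATF3, chr1:212565258-212565317, plus strand: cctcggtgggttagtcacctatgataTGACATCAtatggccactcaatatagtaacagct
JUND, chr19:18281789-18281848, minus strand: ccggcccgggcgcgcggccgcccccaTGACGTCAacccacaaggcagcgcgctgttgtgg
The match TGACATCA began 67 bases before the start of JUN and 123 before that of ATF3, in 1 of its 2 entries, and the JUND match TGACGTCA began 200 bases before. Searched on both strands, TGACATCA stood in 2.61% of 35116 promoters of this length and TGACGTCA in 1.85%. TGACTCA stood in 4.95% and, among the members, in FOSL2, just after its start. The core TGACG, which TGACGTCA contains, stood in 24.6% and was found in FOS, FOSB, JUNB, JUN, FOSL2 and JUND. TATAAA stood in 11.5% of promoters and began 33, 31 and 30 bases before the starts of FOS, JUNB and FOSB, and 230 before that of the other ATF3 entry. TGACATCA was searched as a site type named after JUN, so its match in JUN is no independent result. A match is a description of the letters, and binding was not measured. Whether the matches had a part in the changes was not tested.

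The libraries sequence mRNA 3′ ends, so the 3′ ends of the transcripts are shown next. The 30-base stretches hold the poly(A) signal AATAAA (in capitals) nearest the annotated end of the longest protein-coding transcript, on GRCh38 with GENCODE 29.
ATF3, chr1:212620735-212620764, plus strand: acctgtcagaatAATAAAtattggaaccaa
JUN, chr1:58780795-58780824, minus strand: cattcttgtcacAATAAAtgtattcaaata
FOS, chr14:75282193-75282222, plus strand: caagacattgtcAATAAAagcatttaagtt
FOSL1, chr11:65892224-65892253, minus strand: ctaccaaaatggAATAAAaggcttgaagct
FOSL2, chr2:28417279-28417308, plus strand: agcattttgtagAATAAAatgaattaagat
FOSB, chr19:45475145-45475174, plus strand: tgcactgttgccAATAAAaagctcttaaaa
AATAAA stood in the last 50 bases of 6 members and of 64.5% of 10311 tested protein-coding genes with a 3′ untranslated region of at least 100 bases. JUNB and JUND held neither AATAAA nor ATTAAA there.

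The members also differ in structure. JUN, JUNB and JUND have 1 exon, as do 1.72% of those 10311 genes, and the other members have 4 in the transcript used. Their annotated 3′ untranslated regions run from 500 bases in JUNB to 4864 in FOSL2, where the median gene has 1450. TGTA, the core of the element bound by cleavage factor Im, occurs 13 times in that of JUN, or 10.1 times per kilobase, against a median of 5.16. It occurs 8.68 times per kilobase in FOS, 4.91 in ATF3, 4.32 in FOSL2 and 4 in JUNB. JUND has 2.94, FOSB 1.85 and FOSL1 1.5, so only JUN and FOS exceed the median. ATTTA, the core of AU-rich elements that mark short-lived mRNAs, is densest in FOS at 6.2 per kilobase, where the median gene has 1.8. JUNB has 4, ATF3 2.45, JUN 2.33 and FOSL2 1.85. FOSL1, JUND and FOSB lie below the median, at 1.5, 1.47 and 1.39. By TGTA density FOS, which fell, was second to JUN. ATF3, which rose most among the tested members, lay below the median. In the last 100 bases of the transcript JUN, ATF3, JUND and FOSL2 hold 1 TGTA each. FOS, FOSB, FOSL1 and JUNB hold none there, and 57.2% of the 10311 genes hold at least 1. Whether TGTA had a part in the changes was not tested.

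Among all tested genes, 7302 of 12618 (57.9%) passed an adjusted p of 0.05 in edgeR's quasi-likelihood test with Benjamini-Hochberg adjustment, 29.4% as higher and 28.5% as lower with dTAGV1. Of the 7 tested members, 6 passed, 5 as higher and 1 as lower. Groups did not overlap for 4 of the 7 members and for 50.9% of all tested genes. Most genes were thus called in this comparison, so a call alone does not set a member apart. The sizes are a better guide. The median absolute log2 fold change was 0.421 over all tested genes, with an upper quartile of 0.782, and 0.489 over the 7 members. ATF3, JUN and JUNB lay beyond that quartile, JUNB by little, and JUND, FOSL2 and FOSL1 lay below the median of all tested genes. The median signed log2 fold change was 0.39 over the 7 members and 0.0149 over all tested genes.

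**Figure D1:**
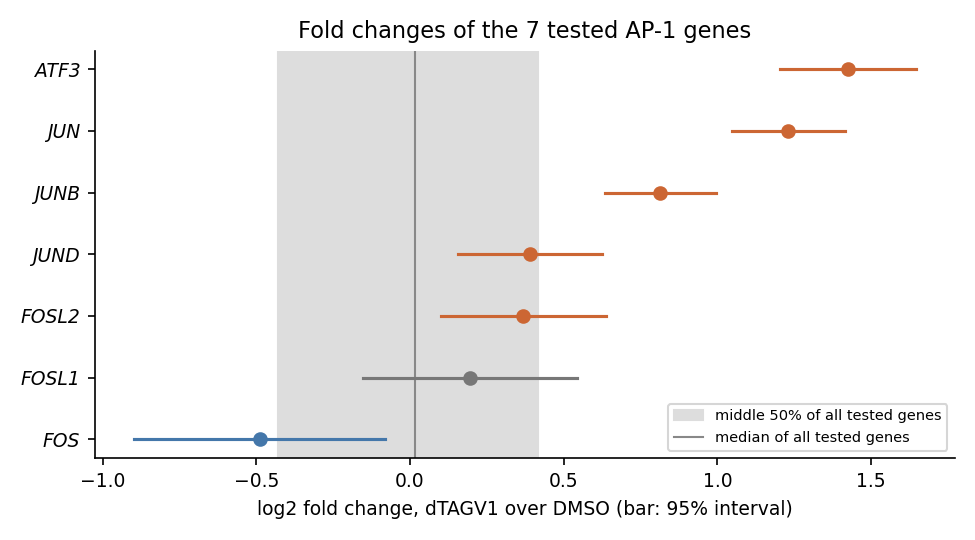
Log2 fold change of the 7 tested AP-1 genes, dTAGV1 over DMSO libraries (points), with 95% intervals (bars), n = 4 libraries in each group; the shaded band holds the middle 50% of all tested genes. ATF3, JUN and JUNB lie to the right of the band, and FOS is the only tested member left of 0.

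NUDT21 mRNA stood at 32.2 ± 2.81 CPM (SD, n = 4) in DMSO libraries and at 8.25 ± 2.62 in dTAGV1 libraries (log2 fold change -1.95, edgeR adjusted p = 1.36e-09). The degrader acts on the protein, which was not analysed here, so this mRNA fall does not show depletion of the protein. The NUDT21 partners CPSF6 and CPSF7 had log2 fold changes of -0.63 and -0.32. CPM are counts in each 1000000 counted reads after TMM scaling. Libraries held 3447842 to 4291256 counted reads. Reads on no annotated gene in the sense direction were 30.1% to 33.7% of uniquely mapped reads with DMSO and 35.9% to 37.4% with dTAGV1. They include reads antisense to a gene. Mitochondrial genes held 7.98% to 8.56% of counts with DMSO and 9.22% to 10.4% with dTAGV1. Of 7 colorectal epithelial markers, 6 reached 10 CPM (EPCAM, CDH1, KRT8, KRT18, KRT19 and CDX2, but not VIL1), and their list summed to 1580 to 1830 CPM with DMSO and 1250 to 1350 with dTAGV1. Of 6 fibroblast markers only COL1A1 reached 10 CPM, with COL3A1, DCN and LUM at 0 in every library and list sums of 15.9 to 20.8 and 11.2 to 15.9. No immune marker of 5 and no endothelial marker of 4 reached 10 CPM, with sums of 0 to 1.37 and 0 to 1.18 for the first and 1.64 to 3.2 and 0.589 to 0.85 for the second. The part of these shifts in the results was not tested, and in bulk RNA fewer cells of a kind cannot be told apart from less RNA per cell.

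JUN, the founding member and main transactivating partner of AP-1, had 97.55, 109.5, 117.9 and 106.8 CPM in DMSO libraries 1 to 4 and 303.3, 235.0, 249.5 and 225.9 CPM in dTAGV1 libraries 1 to 4. Every dTAGV1 library lay above every DMSO library. Means were 108 ± 8.39 CPM (SD, n = 4) with DMSO and 253 ± 34.6 CPM (SD, n = 4) with dTAGV1, and the log2 fold change was 1.23 (SE 0.09, 95% interval 1.05 to 1.41, edgeR adjusted p = 2.49e-11). JUN (ENSG00000177606) is an intronless gene at chr1:58780788-58784327 on the minus strand.

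JUNB, a JUN protein with weaker transactivation that can hold JUN in check, had 154.9, 130.5, 166.0 and 165.9 CPM with DMSO and 266.7, 231.7, 288.1 and 297.3 CPM with dTAGV1. The groups did not overlap. JUNB rose from a mean of 154 ± 16.7 CPM to 271 ± 29.1 CPM, and its log2 fold change was 0.81 (SE 0.09, 95% interval 0.63 to 0.99, edgeR adjusted p = 2.27e-08). JUNB (ENSG00000171223) lies at chr19:12791496-12793315 on the plus strand, where HOOK2 is annotated on the other strand.

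JUND, the JUN gene with the steadiest expression in resting cells, had 255.8, 222.4, 309.8 and 249.0 CPM with DMSO and 381.5, 385.1, 310.2 and 282.4 CPM with dTAGV1. DMSO replicate 3 lay above dTAGV1 replicate 4 and level with dTAGV1 replicate 3, so the groups overlapped. The mean was 259 ± 36.7 CPM with DMSO and 340 ± 51.5 with dTAGV1, and the log2 fold change of 0.39 (SE 0.11, 95% interval 0.16 to 0.62) had an edgeR adjusted p of 0.0064. It is smaller than the median absolute change of all tested genes. JUND (ENSG00000130522) is an intronless gene at chr19:18279760-18281622 on the minus strand.

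ATF3, a stress-induced basic leucine zipper protein that pairs with JUN proteins, had 47.82, 57.40, 43.49 and 56.13 CPM with DMSO and 168.1, 125.7, 130.5 and 127.5 CPM with dTAGV1. Every dTAGV1 library lay above every DMSO library, and dTAGV1 replicate 1 stood above the other three. The mean rose from 51.2 ± 6.67 to 138 ± 20.2 CPM, the largest change among the 7 tested members, with a log2 fold change of 1.43 (SE 0.11, 95% interval 1.21 to 1.65, edgeR adjusted p = 6.4e-11). Without dTAGV1 replicate 1 the log2 fold change was 1.31, and that of JUN, which was also highest there, was 1.12. ATF3 (ENSG00000162772) lies at chr1:212565334-212620777 on the plus strand.

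**Figure D2:**
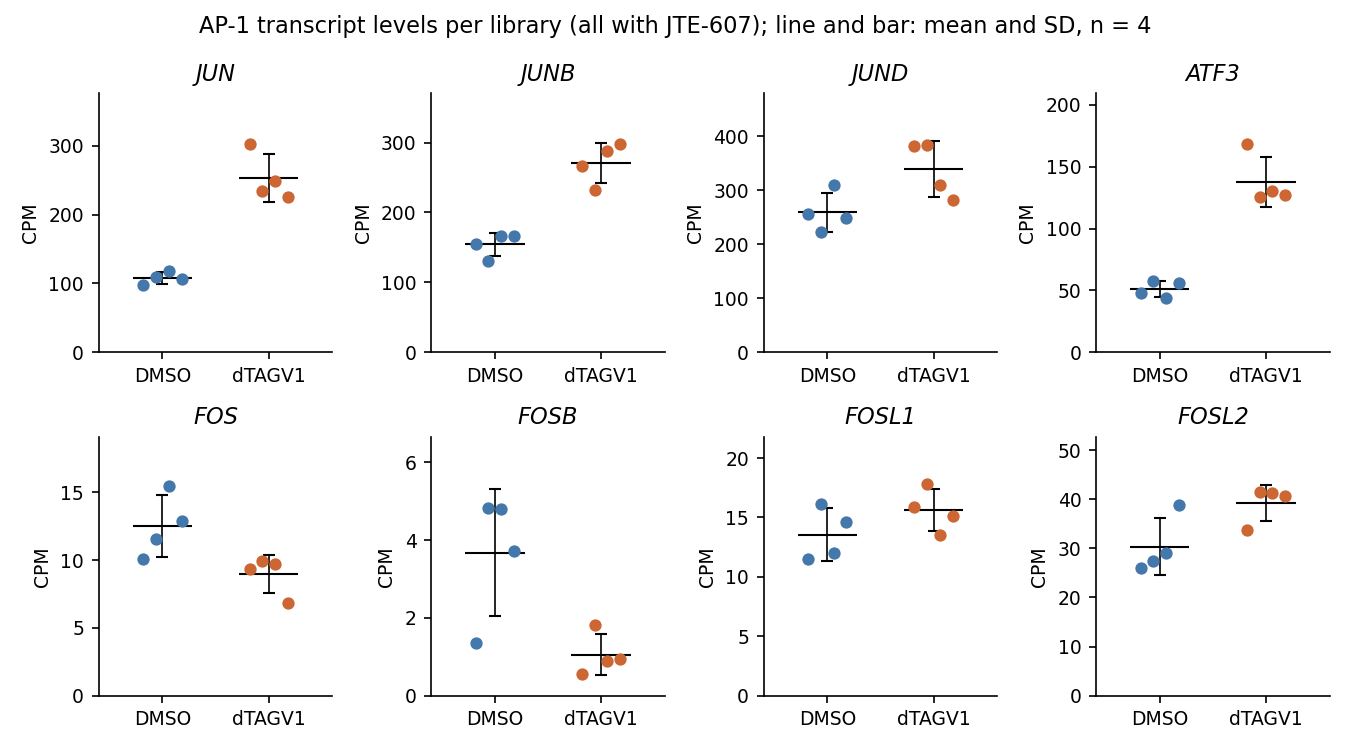
CPM of the 8 AP-1 genes in each of the 8 libraries (points; linear axes from 0, a separate scale for each gene), with the mean (line) and SD (bar) of the 4 libraries of each group. The groups stand apart for JUN, JUNB, ATF3 and, in the other direction, FOS, and share part of their range for JUND, FOSB, FOSL1 and FOSL2.

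FOS, the prototype partner of JUN and an immediate early gene with a very short-lived mRNA, had 10.11, 11.58, 15.47 and 12.86 CPM with DMSO and 9.35, 9.97, 9.72 and 6.86 CPM with dTAGV1. These rest on only 37 to 58 and 29 to 33 reads per library. Every dTAGV1 library lay below every DMSO library, but the lowest DMSO and the highest dTAGV1 value were close. The mean was 12.5 ± 2.28 CPM with DMSO and 8.98 ± 1.43 with dTAGV1, and the log2 fold change of -0.49 (SE 0.20, 95% interval -0.90 to -0.08) had an edgeR adjusted p of 0.0376. The call was lost without DMSO replicate 3 (log2 fold change -0.38, edgeR adjusted p = 0.139), DMSO replicate 4 (-0.48, 0.0708) or dTAGV1 replicate 4 (-0.38, 0.121). It was also lost in DESeq2 (-0.50, adjusted p = 0.0681) and with no filter on low counts (-0.51, adjusted p = 0.0533 in edgeR). FOS (ENSG00000170345) lies at chr14:75278774-75282230 on the plus strand.

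FOSB, a close relative of FOS that is likewise induced by growth factors, had 1.37, 4.82, 4.80 and 3.71 CPM with DMSO and 0.57, 1.81, 0.88 and 0.95 CPM with dTAGV1. That is 58 reads in all in the 4 DMSO libraries and 15 in the 4 dTAGV1 libraries. DMSO replicate 1 lay below dTAGV1 replicate 2, and the other DMSO libraries lay above all dTAGV1 libraries. The mean was 3.68 ± 1.63 CPM with DMSO and 1.05 ± 0.533 with dTAGV1, and a 2-sided exact permutation test of the difference gave p = 0.0571, where 4 against 4 libraries allow 0.0286 at the least. In a fit with no filter, in which 27.0% of 29925 genes passed, the log2 fold change was -1.82 (SE 0.45, 95% interval -2.70 to -0.94, edgeR adjusted p = 0.000316). On the opposite strand of FOSB, where ERCC1 is annotated, 33 reads were counted with DMSO and 38 with dTAGV1. Counted irrespective of strand the log2 fold change was -0.68 (edgeR adjusted p = 0.151). FOSB (ENSG00000125740) lies at chr19:45467995-45475179 on the plus strand.

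FOSL1 encodes FRA1, which lacks the strong transactivating end of FOS and is linked to invasion in carcinoma. It had 11.48, 16.16, 12.01 and 14.59 CPM with DMSO and 15.87, 17.82, 13.55 and 15.14 CPM with dTAGV1, with overlapping groups. The mean was 13.6 ± 2.20 CPM with DMSO and 15.6 ± 1.77 with dTAGV1. The log2 fold change was 0.19, with a 95% interval of -0.15 to 0.54 (SE 0.17, edgeR adjusted p = 0.337), so neither no change nor a rise of 0.5 is outside the interval. FOSL1 (ENSG00000175592) lies at chr11:65892049-65900573 on the minus strand.

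FOSL2 encodes FRA2, the other FOS-related antigen, and was the most abundant FOS family transcript. It had 25.96, 27.49, 29.08 and 38.82 CPM with DMSO and 33.73, 41.38, 41.24 and 40.68 CPM with dTAGV1. DMSO replicate 4 lay above dTAGV1 replicate 1, so the groups overlapped, while the other libraries kept to their sides. The mean was 30.3 ± 5.80 CPM with DMSO and 39.3 ± 3.70 with dTAGV1, a log2 fold change of 0.37 (SE 0.13, 95% interval 0.10 to 0.64, edgeR adjusted p = 0.0177). The call was lost without DMSO replicate 1 (0.30, edgeR adjusted p = 0.0657), DMSO replicate 2 (0.32, 0.0648), DMSO replicate 3 (0.34, 0.0515), dTAGV1 replicate 2 (0.33, 0.0534) or dTAGV1 replicate 3 (0.33, 0.0559), and with library-size scaling (0.29, 0.0559). FOSL2 (ENSG00000075426) lies at chr2:28392448-28417312 on the plus strand, where a sense-intronic gene is annotated on the same strand and FOSL2-AS1 on the other.

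The order of the members was read from CPM within each library, on the basis that a 3′ end library yields about 1 read per transcript and needs no length correction. In DMSO libraries it ran JUND, JUNB, JUN, ATF3, FOSL2, FOSL1, FOS and FOSB. The ranges of neighbours in that order did not overlap, except those of FOSL1 and FOS. In dTAGV1 libraries the means kept this order, but the ranges of JUND and JUNB overlapped, as did those of JUNB and JUN. JUN exceeded JUNB in 2 of the 4 dTAGV1 libraries. FOSL1 and FOS, which overlapped with DMSO, did not overlap with dTAGV1.

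The 8 genes summed to 632.8 ± 52.1 CPM in DMSO libraries and to 1067 ± 78.3 CPM in dTAGV1 libraries (SD, n = 4), a ratio of 1.69. Within this sum JUND held less, and JUN and ATF3 held more, in dTAGV1 libraries. JUND held 40.9% ± 2.96 of AP-1 counts with DMSO and 31.8% ± 3.70 with dTAGV1, JUN held 17.1% ± 1.23 and 23.7% ± 1.51, and ATF3 held 8.17% ± 1.54 and 12.9% ± 0.973. The groups did not overlap for any of these 3 shares, and JUNB, at 24.4% ± 1.52 and 25.5% ± 3.79, overlapped. The FOS family held 9.51% ± 1.28 with DMSO and 6.12% ± 0.744 with dTAGV1, without overlap. The JUN family as a whole held 82.3% ± 2.57 and 81.0% ± 0.28, with overlap. These shares are of a sum to 100%, so a rise of one lowers the others, and no test was run on them.

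**Figure D3:**
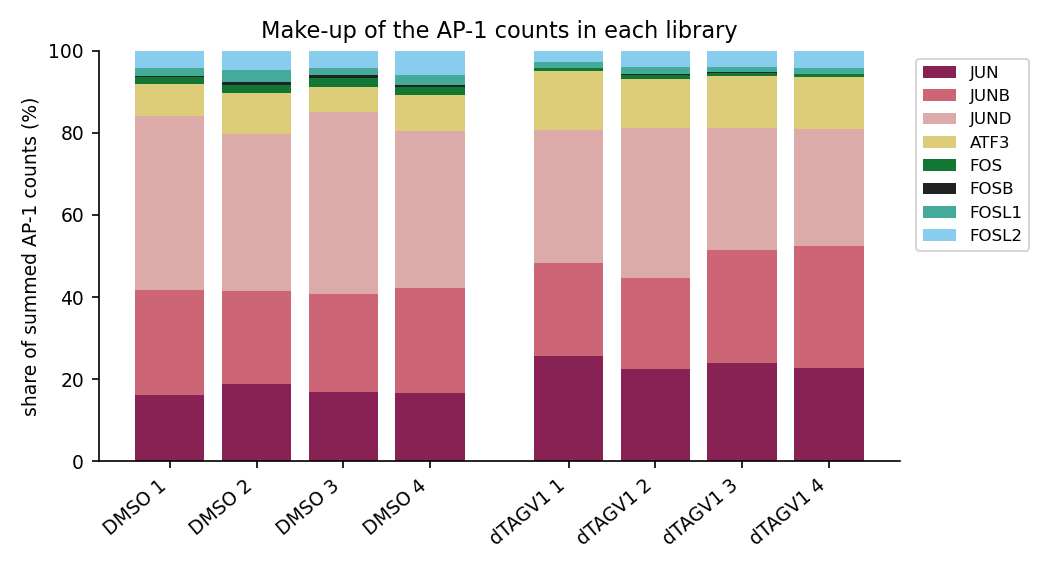
Share (%) of each of the 8 genes in the summed AP-1 counts of each library, with DMSO libraries on the left and dTAGV1 libraries on the right. The JUN band widens from a mean of 17.1% to 23.7% and the ATF3 band from 8.17% to 12.9%, while the JUND band narrows from 40.9% to 31.8%.

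Ratios between members within a library do not depend on scaling. There were 0.381 to 0.492 JUN reads per JUND read in DMSO libraries and 0.61 to 0.804 in dTAGV1 libraries. JUN reads per FOS read were 7.62 to 9.65 with DMSO and 23.6 to 32.9 with dTAGV1. FOSL2 reads per FOS read were 1.88 to 3.02 and 3.61 to 5.93. These 3 ratios did not overlap between groups, and single genes did not overlap in CPM for 50.9% of all tested genes. FOS had only 29 to 58 reads per library. The pairs were not chosen by a stated rule, and no test was run on them. JUN reads per JUNB read were 0.63 to 0.839 and 0.76 to 1.14, which overlap.

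The genes whose profile was most like that of ATF3, which changed most among the 7 tested members, were found by the root mean square difference of centred log2 CPM over the 8 libraries, among the 9321 genes that averaged 10 CPM or more. The nearest were APRG1, at a distance of 0.0936, TRIM52, at 0.106, and B3GLCT, at 0.126, where the median gene stood at 0.736. APRG1, a noncoding transcript, went from 21.4 ± 2.80 to 53.9 ± 9.85 CPM. TRIM52, a tripartite motif protein gene, went from 13.97 ± 1.76 to 36.1 ± 1.73 CPM, and B3GLCT, a glucosyltransferase gene, from 10.4 ± 1.11 to 28.3 ± 1.49 CPM. Of the other members JUN came nearest to ATF3, at 0.18 and rank 23. JUNB stood at 0.391 (rank 740), JUND and FOSL2 both at 0.58, FOSL1 at 0.631, and FOS at 0.977 (rank 7403). The 8 libraries form 2 groups, so the distance mostly follows the group difference.

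Counting mode mattered for some members. On the strand of the gene JUNB had 541 to 1257 reads per library and JUND 922 to 1346, but irrespective of strand they had 3 to 20 and 1 to 5. In the deposited tables the gene ENSG00000301129 has an opposite-strand count of 98.2% to 99.5% of the JUNB count in each library, and ENSG00000299858 one of 99.6% to 99.9% of the JUND count. Neither identifier is in GENCODE 29, so no positions are given for them. The counts of ENSG00000299858 on its own strand, 37 to 80 per library, equalled the JUND opposite-strand counts in 8 of 8 libraries. JUND was the only member among the 3324 genes tested on the opposite strand, of which 48.4% passed, and its log2 fold change there was 0.15 (SE 0.20, 95% interval -0.26 to 0.56, edgeR adjusted p = 0.576). For JUN, ATF3 and FOS no read was counted on the opposite strand in any library.

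**Figure D4:**
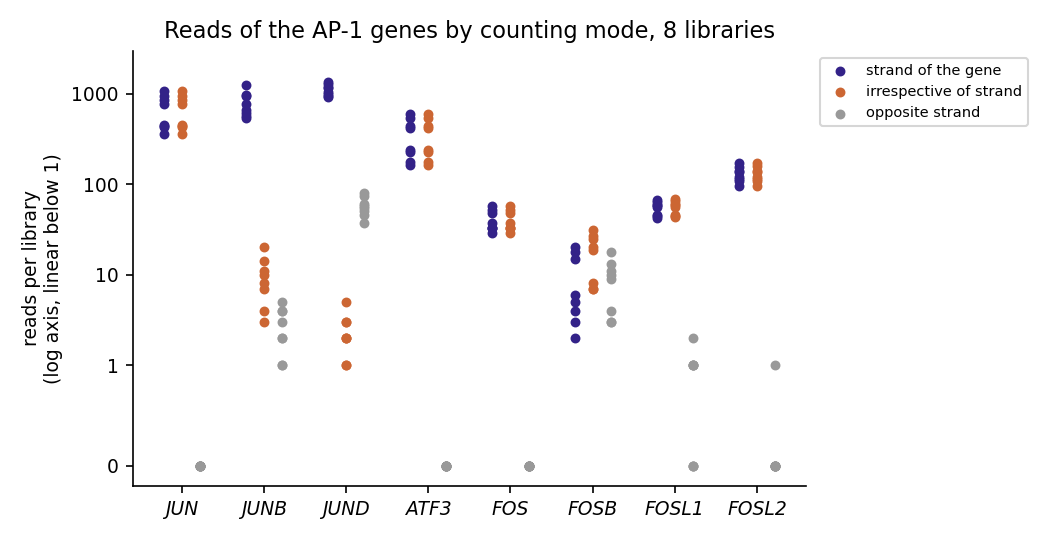
Reads per library of each AP-1 gene in the 8 libraries (log axis, linear below 1), counted on the strand of the gene, irrespective of strand and on the opposite strand. JUNB and JUND fall from at least 541 reads on their own strand to at most 20 when strand is ignored, and the other members except FOSB keep about the same count.

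Genes that act with AP-1 were described in 5 lists written from general knowledge, but with earlier results of these data known. Their shares are thus descriptions, and no test of a list was run. Of 21 genes for dimer partners 16 were tested, and 7 were higher and 2 lower (56.2% called, against 57.9% of all tested genes), with a median log2 fold change of 0.23. The call share is thus close to the background. DDIT3, which encodes the stress factor CHOP, rose from 18.3 ± 1.75 to 46.5 ± 11.9 CPM (log2 fold change 1.34, SE 0.15, edgeR adjusted p = 9.89e-08). NFE2L2, which encodes the antioxidant regulator NRF2, rose from 171.5 ± 7.15 to 366.4 ± 24.1 CPM (1.10, SE 0.07, adjusted p = 3.57e-12). ATF5, a stress-related ATF4 relative, fell from 69.96 ± 8.26 to 28.5 ± 1.42 CPM (-1.29, SE 0.11, adjusted p = 3.13e-10). All 3 overlap microRNA or other small genes on the same strand, and reads shared with them are uncertain. Without dTAGV1 replicate 1, 4 dimer partners were lower.

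Of 30 genes for upstream kinases and factors of the serum response element 26 were tested, with 4 higher and 10 lower and a median of -0.08. The share called was 53.8%, close to the 57.9% of all tested genes. MAP3K5, the stress kinase ASK1 upstream of JNK and p38, rose from 36.1 ± 5.13 to 71.7 ± 9.54 CPM (log2 fold change 0.99, SE 0.12, edgeR adjusted p = 7.08e-08). BRAF, a kinase of the ERK cascade, rose from 41.9 ± 4.48 to 76.5 ± 3.99 CPM (0.87, SE 0.10, adjusted p = 4.62e-08). MRTFB, a coactivator of serum response factor, fell from 25.7 ± 0.684 to 12.1 ± 2.56 CPM (-1.08, SE 0.16, adjusted p = 2.48e-06). RPS6KA4, the histone H3 kinase MSK2, fell from 41.3 ± 5.00 to 25.6 ± 8.33 CPM with overlapping groups (-0.69, SE 0.16, adjusted p = 0.00111). MRTFB and RPS6KA4 overlap small genes on the same strand, with the same uncertainty.

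Of 30 other immediate early genes 25 were tested, with 7 higher and 11 lower and a median of -0.15. The share called was 72%, against 57.9% of all tested genes (29.4% higher and 28.5% lower). EGR1, a zinc finger factor induced together with FOS through the serum response element, fell from 113.8 ± 27.9 to 43.1 ± 7.50 CPM (log2 fold change -1.41, SE 0.19, edgeR adjusted p = 6e-05). KLF2, a Krüppel-like factor, fell from 130.1 ± 20.2 to 51.0 ± 16.0 CPM (-1.35, SE 0.20, adjusted p = 0.000271). DUSP5, a nuclear phosphatase of ERK, rose from 114.3 ± 12.2 to 220.2 ± 16.0 CPM (0.94, SE 0.08, adjusted p = 6.81e-10). CCN1, a secreted matrix protein, rose from 19.9 ± 4.06 to 34.4 ± 2.35 CPM (0.79, SE 0.14, adjusted p = 3.68e-05).

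Of 34 genes known as AP-1 targets 23 were tested, with 17 higher and 4 lower (91.3% called) and a median log2 fold change of 0.72, and groups did not overlap for 20. Over all tested genes 57.9% were called, 29.4% as higher, and 50.9% did not overlap. PLAU, the urokinase protease, rose from 93.3 ± 9.45 to 363.8 ± 20.2 CPM (log2 fold change 1.96, SE 0.08, edgeR adjusted p = 1.56e-15). AREG, the growth factor amphiregulin, rose from 1063 ± 32.4 to 2950 ± 210.5 CPM (1.47, SE 0.07, adjusted p = 7.31e-15). CCND1, the G1 cyclin D1, fell from 668.6 ± 57.6 to 401.6 ± 33.5 CPM (-0.74, SE 0.08, adjusted p = 9.62e-09). LIF, a cytokine, fell from 28.2 ± 2.02 to 17.1 ± 3.90 CPM (-0.72, SE 0.15, adjusted p = 0.00022). The list was not chosen blind to these data, so its share is a description only. These genes have other regulators too, and whether AP-1 acted on them was not tested.

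Of 17 genes for turnover of AP-1 mRNAs and proteins 16 were tested, with 5 higher and 4 lower. The share called was 56.2%, close to the 57.9% of all tested genes. The median log2 fold change was 0.06 and the mean was of opposite sign and near 0. FBXW7, the ubiquitin ligase subunit that marks JUN for degradation, rose from 118.0 ± 3.52 to 246.9 ± 18.8 CPM (log2 fold change 1.06, SE 0.08, edgeR adjusted p = 1.25e-11). TIAL1, which binds AU-rich elements, rose from 147.5 ± 6.07 to 197.9 ± 11.1 CPM (0.42, SE 0.07, adjusted p = 2.23e-05). ZFP36L2, which recruits deadenylases to AU-rich mRNAs, fell from 60.2 ± 6.73 to 31.6 ± 5.45 CPM (-0.93, SE 0.12, adjusted p = 3.81e-07). HNRNPD, the AU-rich element binding protein AUF1, fell from 371.4 ± 20.6 to 202.3 ± 17.6 CPM (-0.88, SE 0.07, adjusted p = 3.91e-10). FBXW7 overlaps a microRNA gene on the same strand. SRF and ZFP36 are each in 2 of the lists.

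**Figure D5:**
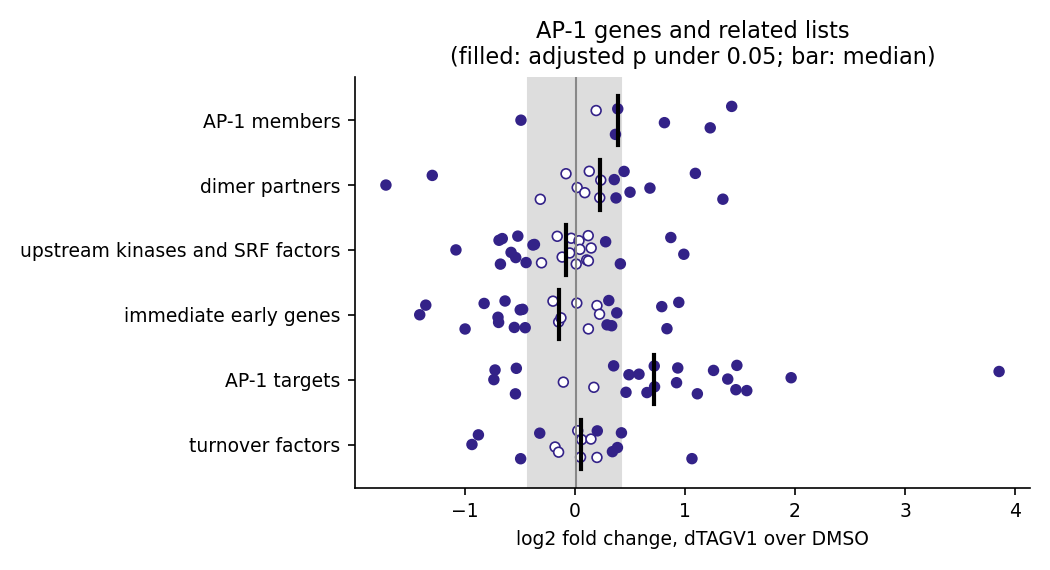
Log2 fold change, dTAGV1 over DMSO, of each tested gene (points) in the AP-1 members and 5 related lists, filled where the edgeR adjusted p was under 0.05, with the median of each list (black bar) and the middle 50% of all tested genes (band). The AP-1 targets have their median at 0.72, right of the band, and the immediate early genes theirs at -0.15, inside it. CXCL8 lies farthest right, at 3.85, but its mean CPM was below the level required of the genes named from each list.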

How the data were processed

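Libraries were made from Trizol-extracted RNA with a forward QuantSeq 3′ kit, per the labels' protocols. The authors deposited counts, whole numbers of reads per gene, in 3 modes: irrespective of strand, sense and antisense. FastQC, fastp, STAR, HTSeq, DESeq2 and GRCh38 are named in the submitters' processing notes, without roles. The annotation, and whether molecular identifiers were used, are not given in the sources used here. Sense counts were used. Total reads were 8649238 to 9977205 per library, of which 4 totals of no gene (56.7% to 62.8%) stayed out of library sizes and tests.

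Genes were filtered with filterByExpr and tested with edgeR 4.0.16 in R 4.3.3 (TMM scaling, robust quasi-likelihood fit, Benjamini-Hochberg adjustment over all tested genes, threshold 0.05). Standard errors are the size of the log2 fold change over the square root of F. Symbols matched 61481 of 78932 identifiers, and GENCODE 29 held 57356. The named genes are the 8 members, NUDT21, CPSF6, CPSF7, the 3 nearest profiles to ATF3, the member with the largest change among those with a mean of at least 10 CPM, and up to 2 called increases and 2 decreases of each list, by size, with a mean of at least 10 CPM. CXCL8 was named after its value was seen, although its mean was below 10 CPM. The members and lists were chosen with earlier results of these data known.

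On simulated counts of 12415 genes with 200 drawn for a change, 87.5% of 96 genes changed by 1 (log2) and 100% of 94 changed by 2 were called, with 11 false calls among 12225. In the data 57.9% of tested genes were called, far more than were changed there. Changes smaller than 1, such as those of JUND, FOSL2 and FOS, were not simulated. Alternatives were DESeq2 1.42.0, limma-voom 3.58.1, RLE and library-size scaling, no filter, a mean of at least 100 counts, counts irrespective of strand, non-robust dispersions, a replicate block and leaving out each library. The fit of FOSB with no filter and the alternatives for the JUN family share were chosen after seeing the data. Replicate numbers were not taken to pair libraries, since deviations of same-numbered libraries correlated at 0.131, -0.0176, 0.0232 and 0.0340. Proteins and single poly(A) sites were not analysed here.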

Additional observations from a re-analysis of the deposited data

Results flagged for a closer look

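In 3 places 1 library stood far from the other 3 of its group, and it was dTAGV1 replicate 1 each time. It had 168.1 CPM of ATF3, where the others had a median of 127.5, with a gap of 0.886 of the range of the group. It had 33.73 CPM of FOSL2, where the others had 41.24 (gap 0.908), and FOSL2 held 2.861% of its AP-1 counts, where the others had 3.951% (gap 0.89). Each gap is above Dixon's critical value at 95% for 4 samples. In all, 32 groups of 4 were looked at, and chance flags about 5% of groups. The FOSL2 level and share are of the same counts. Without this library the log2 fold change was 1.31 for ATF3 and 0.43 for FOSL2 (edgeR adjusted p = 0.0083).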

How the results depend on the processing

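No log2 fold change of a member changed sign under an alternative. JUN (1.12 to 1.27), ATF3 (1.31 to 1.48) and JUND (0.31 to 0.48) kept their calls in every alternative in which they were tested, and FOSL1 stayed uncalled in 16 of 16. FOS lost its call in DESeq2 (-0.50) and with no filter (-0.51), and over single left-out libraries it ranged from -0.58 to -0.38. FOSL2 lost its call with library-size scaling (0.29) and ranged from 0.30 to 0.51 over single left-out libraries. Irrespective of strand, JUNB (0.72, edgeR adjusted p = 0.159) and FOSB (-0.68) were not called, JUND was not tested, and 3 members were higher. The JUN family share was then 6.09 points higher with dTAGV1, where on the strand of the gene the difference was -1.32 points. In that mode JUNB had only 3 to 20 reads per library and JUND 1 to 5, so the family there is mostly JUN. These shifts thus follow the loss of reads in the counting. The count of lower members, 1, was 0 in DESeq2 and at a mean of at least 100 counts, where FOS was not tested, and 0 to 2 over single left-out libraries, with FOSB passing the filter in some. A mean of at least 100 counts left 4120 genes called in all, since fewer genes were tested. With library-size scaling the median of all genes moved by -0.07 and the share of calls that were higher was 43.8%, against 50.8%.

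With the replicate number as a block (replicate block), 7434 genes were called and no member's call changed. Of the other named genes, wherever they were tested, only ZFP36L2 lost its call, irrespective of strand (-0.20). Depth limits FOS and FOSB most, with 29 to 58 and 2 to 20 reads per library.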
